A study of Homo sapiens with 4 samples.

Results

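The miR-148 and miR-152 family comprises the microRNAs (miRNAs) made from the genes MIR148A, MIR148B and MIR152. Its 5 members here were the rows named hsa-miR-148a-3p, hsa-miR-148a-5p, hsa-miR-148b-3p, hsa-miR-148b-5p and hsa-miR-152 in each of the 4 deposited files, chosen by name from 1882 names that all 4 files list and 2080 names that occur in any file. The 4 small RNA libraries came from HT29 and HCT15, established cell lines derived from human colorectal adenocarcinomas. For each line the study set parental cells against spheres, which the submitters regard as cancer stem cells derived from spheres. HT29 parental cells grew in DMEM and HCT15 parental cells in RPMI, both with 10% FBS, and the spheres of both lines grew in DMEM-F12 with N2 Plus Supplement, bFGF at 10 ng/ml and EGF at 10 ng/ml. All 4 cultures received penicillin-streptomycin, and the labels name no gene alteration, passage or sphere age. Medium and sphere culture changed together in each line and cannot be told apart. There was 1 library per line and culture, so no library had a replicate, and the 2 lines were the only replicates of the comparison of spheres with parental cells.

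A miRNA gene is transcribed into a hairpin that is cut into a 5p and a 3p strand, called arms, one of which is usually kept in the Argonaute protein while the other is degraded. The kept arm finds messenger RNAs mainly through its seed, bases 2 to 8 from the 5' end, so that miRNAs with the same seed can repress overlapping sets of targets. The family is known for repressing the DNA methyltransferases DNMT1 and DNMT3B, and it has been described as lower in gastrointestinal tumours than in normal mucosa. miR-148a has also been described as a regulator of the LDL receptor and of HLA-C.

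The mature sequences of the arms are shown because they define the family: the seed, in capitals, was the same in all 3 main arms. RefSeq sequences on GRCh38.p14 were matched by name for 4 of the 5 members, with the entry miR-152-3p taken for the row miR-152.
miR-148a-3p: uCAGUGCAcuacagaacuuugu
miR-148b-3p: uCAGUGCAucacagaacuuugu
miR-152: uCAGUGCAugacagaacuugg
miR-148b-5p: aAGUUCUGuuauacacucaggc

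Counted from 1 at the 5' end, miR-148a-3p differed from miR-148b-3p by C9U and U10C, at 2 of 22 positions compared. It differed from miR-152 by C9U, U10G and U20G, at 3 of 21 positions compared, and miR-152 is 1 base shorter. miR-148b-3p differed from miR-152 by C10G and U20G. All substitutions lay outside the seed. Of 2370 human mature entries in the table, 3 (0.127%) had the seed CAGUGCA, and these were the 3 main arms of the family. The seed of miR-148b-5p, AGUUCUG, was shared by 1 other entry, miR-6874-3p, named after the search was made.

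The hairpins show where the arms lie, with the mature arms that the RefSeq table gives in capitals.
MIR148A: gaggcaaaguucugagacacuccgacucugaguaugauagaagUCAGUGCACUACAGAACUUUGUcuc
MIR148B: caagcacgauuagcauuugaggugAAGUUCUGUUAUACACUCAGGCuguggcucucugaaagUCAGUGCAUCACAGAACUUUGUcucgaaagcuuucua
MIR152: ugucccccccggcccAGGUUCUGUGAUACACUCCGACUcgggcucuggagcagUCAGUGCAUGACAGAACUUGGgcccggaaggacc

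On GRCh38, MIR148A lies at chr7:25949919-25949986 on the minus strand and overlaps no other GENCODE 29 gene. MIR148B lies at chr12:54337216-54337314 on the plus strand, in an intron of COPZ1 and of the sense-overlapping transcript AC078778.2. MIR152 lies at chr17:48037161-48037247 on the minus strand, in an intron of COPZ2. COPZ1 and COPZ2 encode zeta subunits of the COPI coat, which carries vesicles from the Golgi to the endoplasmic reticulum. Each hairpin shares its chromosome arm with a HOX cluster. No other annotated miRNA lay within 100 kb of any of the 3 hairpins, the nearest being MIR3198-2 at 106 kb from MIR148B.

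Levels are in CPM, the share of a library's listed miRNA reads scaled to 1e6. HT29 had 5806540 listed reads in parental cells and 12794274 in spheres. The HCT15 files hold RPKM, whose low values step by about what 1 read is worth, which gave about 3189981 reads in parental cells and 2325417 in spheres. The 6 listed markers of colorectal epithelium (miR-192-5p, miR-194-5p, miR-215, miR-200c-3p, miR-141-3p and miR-375) were above 0 in all 4 libraries. They summed to 141900 CPM in the parental and 214179 CPM in the sphere library of HT29, and to 17166 and 14757 CPM in the HCT15 pair. In HCT15 the highest of the 6 was miR-375, at 10451 CPM in parental cells and 7538 CPM in spheres. The lowest there was miR-194-5p, at 81.5 and 77.4 CPM. The 4 stromal markers summed to between 6.72 and 20.4 CPM over the 4 libraries, and miR-214-3p was at 0 in all of them. The 5 blood-cell markers summed to 402 CPM in parental HT29 and 376 CPM in HT29 spheres, nearly all of it miR-142-3p, and to 2.85 and 1.74 CPM in the HCT15 pair, and miR-223-3p was at 0 in all 4 libraries. The 2 endothelial arms of miR-126 summed to between 121 and 293 CPM, and the liver miRNA miR-122-5p did not exceed 0.625 CPM. The part of any marker in the family's values was not tested.

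The 2 lines held very different amounts of miR-148a and similar amounts of miR-148b. miR-148a-3p was at 486 CPM in parental HT29, 1650 CPM in HT29 spheres, 34279 CPM in HCT15 parental cells and 44701 CPM in HCT15 spheres. Both HCT15 libraries were thus far above both HT29 libraries, by 70.6-fold between the parental cultures and 27.1-fold between the spheres. In HCT15 it made up 3.43% and 4.47% of all listed reads in parental cells and spheres and ranked 11 and 5 of 1882 names, while in HT29 it ranked 109 and 58. The files of the lines were deposited in different units and normalized separately, so these levels are set side by side and no test was made.

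miR-148b-3p was at 1833 CPM in parental HT29, 3326 CPM in HT29 spheres, 1703 CPM in HCT15 parental cells and 2225 CPM in HCT15 spheres. The parental levels of the lines were within 1.08-fold of each other, and which line was higher depended on the scaling: HT29 by total counts, and HCT15 by 1.13-fold with TMM factors (trimmed mean of M values, a scaling that assumes most miRNAs do not differ). miR-148b-5p followed the same pattern at lower levels, with 224 CPM in parental HT29, 271 CPM in HT29 spheres, 204 CPM in parental HCT15 and 234 CPM in HCT15 spheres.

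miR-152 was at 198 CPM in parental HT29, 551 CPM in HT29 spheres, 107 CPM in HCT15 parental cells and 112 CPM in HCT15 spheres. It was the 1 main arm with higher levels in HT29 than in HCT15 in both cultures under total counts and TMM alike, by 1.84-fold in parental cells and 4.94-fold in spheres by total counts and by 1.51-fold and 4.76-fold with TMM. miR-148a-5p, the minor arm of miR-148a, was at 4.82 CPM (28 reads, 95% Wilson interval 3.34 to 6.97) in parental HT29 and 21.03 CPM (269 reads, 18.7 to 23.7) in HT29 spheres. In HCT15 it was at 727 and 651 CPM in parental cells and spheres, above miR-152 and miR-148b-5p of the same libraries.

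**Figure D1:**
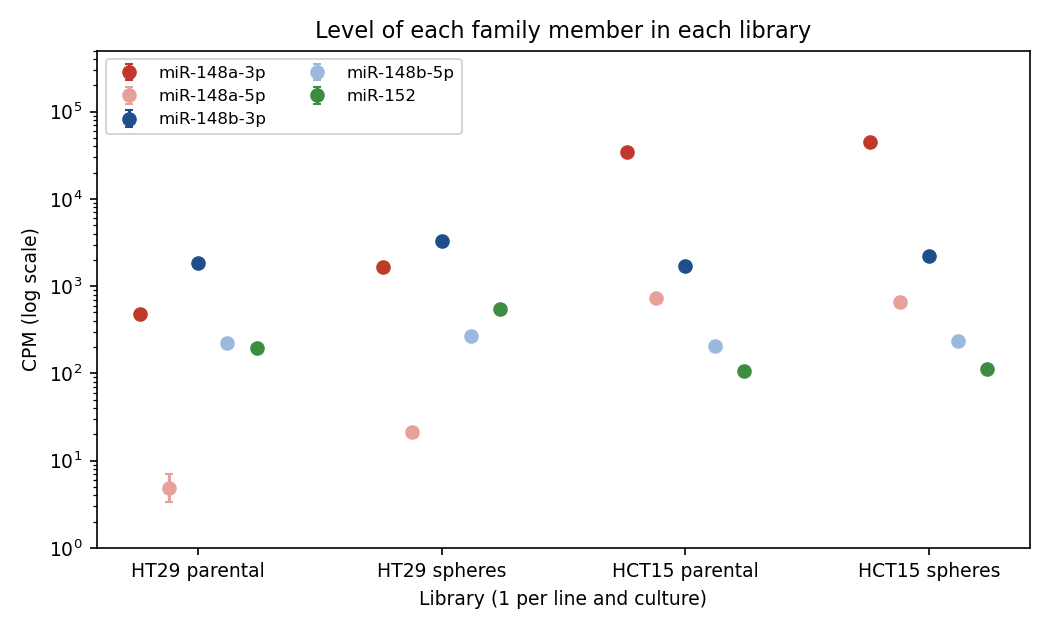
Level of the 5 members in each of the 4 libraries, in CPM on a log axis. Points are single libraries and bars are 95% Wilson intervals, which cover counting error only. miR-148a-3p lies at 486 and 1650 CPM in HT29 and at 34279 and 44701 CPM in HCT15, whereas miR-148b-3p lies between 1703 and 3326 CPM in all 4.

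The order of the members therefore differed between the lines. In HT29 parental cells it ran miR-148b-3p, miR-148a-3p, miR-148b-5p, miR-152 and miR-148a-5p. Of the neighbours in that order the closest were miR-148b-5p (95% interval 213 to 237 CPM) and miR-152 (187 to 209 CPM), whose intervals did not overlap. In HT29 spheres miR-152 stood above miR-148b-5p. In both HCT15 libraries the order was miR-148a-3p, miR-148b-3p, miR-148a-5p, miR-148b-5p and miR-152. These intervals cover counting error only, since reads carry no molecular identifiers and no library was repeated, so the spread between cultures is not known.

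As a share of the family's reads, which no scaling between libraries can move, miR-148b-3p was the main member in HT29 and miR-148a-3p in HCT15. miR-148a-3p made up 17.7% of the family's reads in parental HT29 (17.1% to 18.3%) and 28.4% in HT29 spheres (28.0% to 28.7%). miR-148b-3p made up 66.8% and 57.2% in the same libraries, and miR-152 made up 7.20% and 9.47%. In HCT15 miR-148a-3p made up 92.6% and 93.3% in parental cells and spheres, miR-148b-3p 4.60% and 4.64%, and miR-152 0.290% and 0.233%. The makeup differed between the HT29 cultures by more than counting error. In HCT15 the intervals of miR-148a-3p (92.4% to 92.7% and 93.1% to 93.4%) did not overlap either, though the shares were closer.

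**Figure D2:**
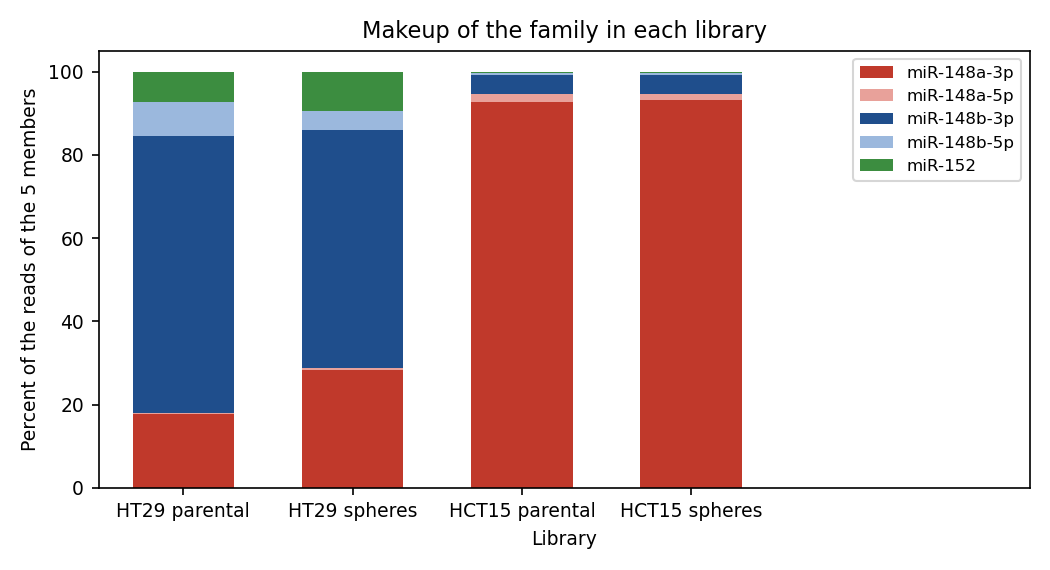
Makeup of the family in each library, as the percent of the reads of the 5 members. Each bar is 1 library and adds up to 100%. miR-148b-3p fills 66.8% and 57.2% of the HT29 bars, and miR-148a-3p fills 92.6% and 93.3% of the HCT15 bars.

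The 3 arms with the seed CAGUGCA together came to 2516 CPM in parental HT29 and 5527 CPM in HT29 spheres, and to 36089 and 47037 CPM in HCT15 parental cells and spheres. In HT29 most of this pool was miR-148b-3p, and in HCT15 most of it was miR-148a-3p. In HCT15 the deposited values of miR-148b-3p corresponded to 5431.5 and 5173.5 reads, so part of the reads there entered as fractions. miR-148a-3p and miR-148b-3p differ at bases 9 and 10, so only reads without these bases fit both exactly. How the authors treated reads that fit more than 1 miRNA is not given in the sources used here. Whether the fractions bear on the split between these 2 members was not tested.

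The 3p arm held most of the reads of both genes. For miR-148a the 3p arm made up 99.0% of the reads of both arms in parental HT29, 98.7% in HT29 spheres, 97.9% in parental HCT15 and 98.6% in HCT15 spheres. For miR-148b it made up 89.1% and 92.5% in HT29 and 89.3% and 90.5% in HCT15. There was thus 1 read of miR-148b-5p for 8.17 to 12.3 reads of its 3p arm over the 4 libraries, against 1 read of miR-148a-5p for 47.1 to 101 reads of its 3p arm.

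The share of miR-148b-5p was lower in spheres than in parental cells in both lines. It was 10.9% (95% Wilson interval 10.4% to 11.5%) in parental HT29 and 7.53% (7.30% to 7.78%) in HT29 spheres, intervals that do not overlap. In HCT15 it was 10.7% (9.94% to 11.5%) in parental cells and 9.51% (8.78% to 10.3%) in spheres, intervals that do overlap. The difference between the arms' log2 ratios, 5p minus 3p, was -0.59 in HT29 (95% Wald interval -0.68 to -0.49) and -0.19 in HCT15 (-0.36 to -0.013). The share of miR-148a-5p went in opposite directions: it was 0.983% (0.681% to 1.42%) in parental HT29 and 1.26% (1.12% to 1.42%) in HT29 spheres, against 2.08% (1.996% to 2.16%) in parental HCT15 and 1.44% (1.37% to 1.51%) in HCT15 spheres. For this gene the 5p minus 3p difference, worked out without a prior count, was 0.36 in HT29, with an interval from -0.20 to 0.92 that rests on 28 parental 5p reads, and -0.54 in HCT15 (-0.64 to -0.45). In HT29 a difference between the arms of miR-148a was not detectable at this depth.

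**Figure D3:**
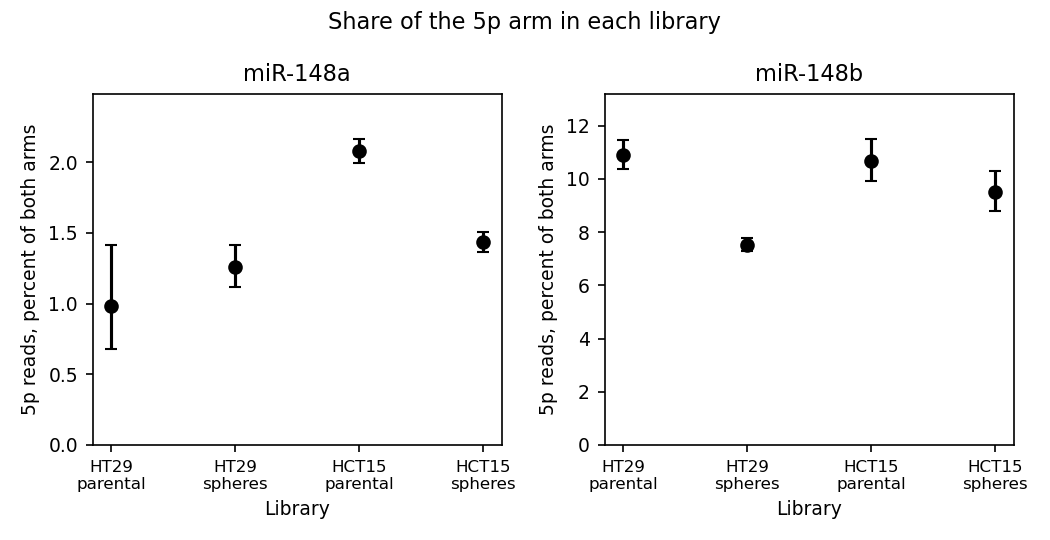
Share of the 5p arm among the reads of both arms, in percent, for miR-148a and miR-148b in each library. Points are single libraries and bars are 95% Wilson intervals covering counting error only. For miR-148b the share is 10.9% in parental HT29 and 7.53% in HT29 spheres, and for miR-148a it is highest in HCT15 parental cells, at 2.08%.

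In HT29, all 5 members had higher TMM-scaled levels in the sphere library than in the parental library, where 47.6% of all 351 miRNAs averaging 10 CPM or more over the HT29 pair did. The log2 ratio of spheres over parental cells was 2.35 for miR-148a-3p (95% exact conditional interval 2.29 to 2.40), 2.64 for miR-148a-5p (2.14 to 3.32), 2.06 for miR-152 (1.97 to 2.15), 1.44 for miR-148b-3p (1.41 to 1.47) and 0.85 for miR-148b-5p (0.76 to 0.95). miR-148a-5p, at 4.82 CPM in the parental library, reached a mean of 10 CPM only through its sphere level, so it is left out of the counts that follow. The other 4 had fold changes from 1.81 for miR-148b-5p to 5.09 for miR-148a-3p. All 4 had a ratio above 0, where 47.6% of the 351 miRNAs averaging 10 CPM or more over the HT29 pair did. Of these 4, 3 were at least 2-fold higher, where 44 of the 351 (12.5%) were. The median log2 ratio was 1.75 over the 4 and -0.064 over all 351. In order of their ratio among the 351, miR-148a-3p ranked 11, miR-152 12, miR-148b-3p 21 and miR-148b-5p 58. With 1 library per culture these differences have no replicate check.

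Markers of colorectal epithelium were also higher in HT29 spheres: 4 of the 6 were at least 2-fold higher with TMM, where 12.5% of the 351 were. Their median log2 ratio was 1.23, and 0 passed in limma. That count depended on the scaling: at the lowest of 7 scalings miR-192-5p was at 0.78 and miR-141-3p at 0.52, under 2-fold. miR-375 and miR-215 stayed at 1.44 and 1.05 or above. miR-375 was at 2.02, miR-192-5p at 1.36, miR-200c-3p at 0.72 and miR-194-5p at 0.18, and over 7 scalings the sign of miR-194-5p alone among the 6 changed. In HCT15 0 of the 6 were at least 2-fold higher, where 8.95% of 324 miRNAs were. Their median was 0.33, with the signs of miR-194-5p, miR-215 and miR-375 changing with the scaling. The part of these markers in the family's ratios was not tested.

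With total counts instead of TMM, the log2 ratios in HT29 were lower by 0.58, and by slightly less for scarce miRNAs because of the prior count. The members then stood between 0.27 for miR-148b-5p and 2.08 for miR-148a-5p, and 2 of the 4 were at least 2-fold higher, since miR-148b-3p was at 0.86. The split of all 351 at a 2-fold difference moved with it, from 44 higher and 65 lower to 16 and 126. Over 7 scalings every member kept a ratio above 0 in HT29.

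Differences between the members' ratios do not depend on the scaling, and they were uneven in HT29. The log2 ratio of miR-148a-3p exceeded that of miR-148b-3p by 0.90 (95% Wald interval 0.84 to 0.97) and that of miR-152 by 0.29 (0.18 to 0.39), and the ratio of miR-152 exceeded that of miR-148b-3p by 0.62 (0.52 to 0.71). In HCT15 the ratios of miR-148a-3p and miR-148b-3p differed by -0.0029 (-0.059 to 0.053). miR-152 was there below miR-148b-3p by a log2 difference of -0.34 (-0.57 to -0.096).

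In HCT15, the ratios of all 5 members were also above 0 with TMM, as were 52.8% of 324 miRNAs averaging 10 CPM or more over the HCT15 pair. The log2 ratio was 0.74 for miR-148b-3p (95% exact conditional interval 0.68 to 0.79), 0.74 for miR-148a-3p (0.72 to 0.75), 0.55 for miR-148b-5p (0.38 to 0.72), 0.40 for miR-152 (0.16 to 0.64) and 0.19 for miR-148a-5p (0.098 to 0.29). Of the 5 members, 0 were at least 2-fold higher, where 29 of the 324 (8.95%) were. The median log2 ratio was 0.55 over the members and 0.048 over all 324. miR-148b-3p ranked 42 and miR-148a-3p 43 of 324, and miR-148a-5p ranked 131. HCT15 reads were worked out from RPKM, so its intervals are approximate.

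With total counts the log2 ratios in HCT15 were lower by 0.35, or slightly less for scarce miRNAs, which put miR-148a-5p at -0.16, miR-152 at 0.054, miR-148b-5p at 0.20, miR-148a-3p at 0.38 and miR-148b-3p at 0.39. The direction of miR-148a-5p in HCT15 therefore depended on the scaling, while the other 4 members kept a ratio above 0 over the 7 scalings. The split of all 324 at a 2-fold difference moved from 29 higher and 19 lower to 19 and 51.

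**Figure D4:**
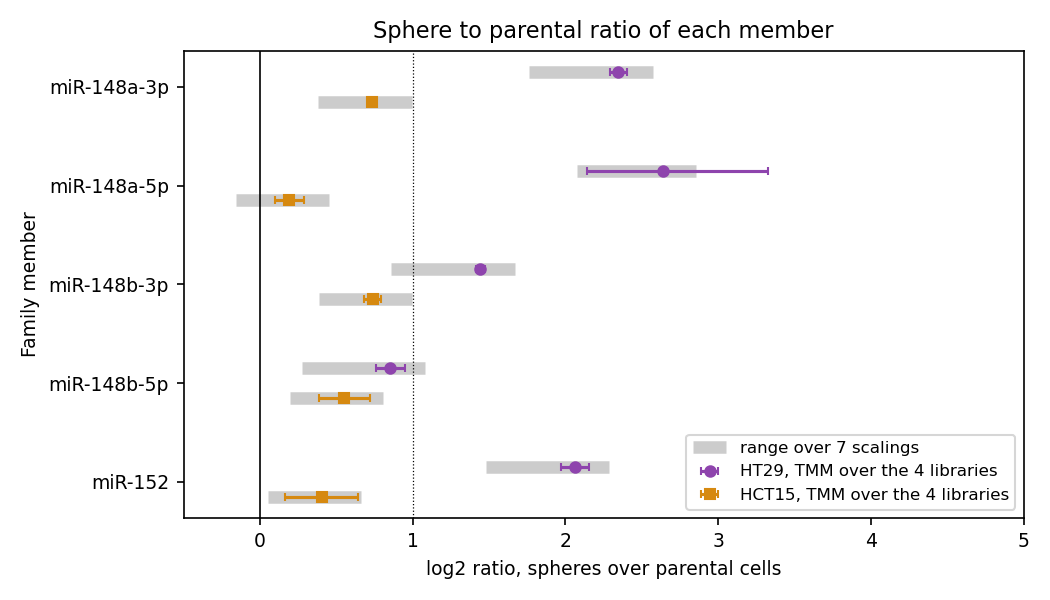
Log2 ratio of spheres over parental cells for each member in HT29 and HCT15. Points use TMM over the 4 libraries, bars are 95% exact conditional intervals covering counting error only, grey bands give the range over 7 scalings, and the dotted line marks a 2-fold difference. In HT29 4 points lie beyond that line, among them miR-148a-5p, which rests on 28 parental reads. In HCT15 0 points do, and the band of miR-148a-5p there crosses 0.

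Set side by side, the HT29 ratio was above the HCT15 ratio for each of the 5 members, by amounts that varied. How many of all miRNAs did the same was not counted. The median ratio over all was -0.064 in HT29 and 0.048 in HCT15. The difference was 2.45 for miR-148a-5p, which rests on 28 reads in parental HT29, followed by 1.66 for miR-152, 1.61 for miR-148a-3p, 0.70 for miR-148b-3p and 0.30 for miR-148b-5p. With total counts these differences were 2.24, 1.42, 1.38, 0.47 and 0.073. With 1 library per line and culture, the difference between the lines was not tested. The 4 members other than miR-148a-5p had a TMM ratio above 0 in both lines, as did 73 of the 252 miRNAs (29%) that averaged 10 CPM or more in each line.

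**Figure D5:**
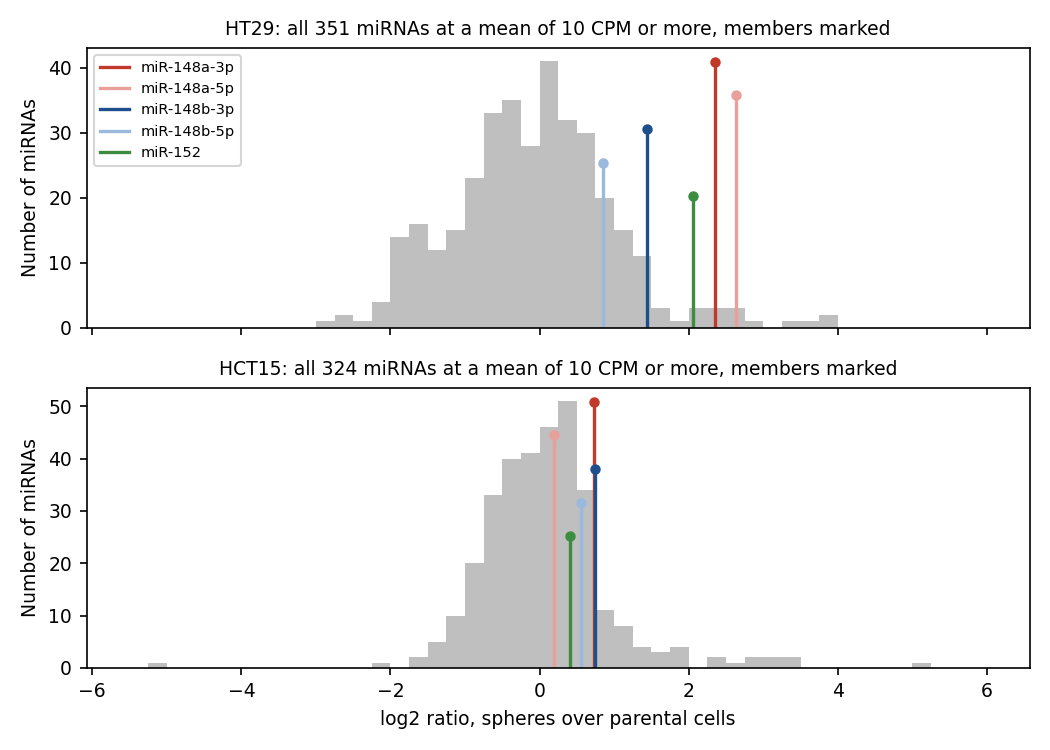
Log2 ratios of all miRNAs averaging 10 CPM or more in HT29 (351) and in HCT15 (324), as histograms of the number of miRNAs, with the 5 members marked by coloured lines whose height has no meaning. In HT29 the members lie from 0.85 to 2.64, the highest being miR-148a-5p, which averaged 10 CPM only through its sphere level. The median over all is -0.064 there. In HCT15 the members lie from 0.19 to 0.74 against a median of 0.048.

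Across both lines, no member passed the test. It was made with limma on log2 of TMM-scaled CPM plus 1, with the line as a block, over the 377 miRNAs that reached 10 CPM in 2 or more of the libraries. All 5 members were among these. At a threshold of 0.05 on p adjusted by Benjamini-Hochberg, limma called 0 of 377 (0%), with 21 under 0.05 before adjustment. The quasi-likelihood test of edgeR gave the same counts, 0 and 21. The limma log2 fold change of miR-148a-3p was 1.54 (SE 0.51, adjusted p = 0.752). It was the 1 member under 0.05 before adjustment, where 12 of 377 (3.18%) were higher in spheres and under 0.05. For miR-148b-3p limma gave 1.09 (SE 0.39, adjusted p = 0.752), and for miR-152 1.23 (SE 0.59, adjusted p = 0.757). miR-148a-5p and miR-148b-5p had limma log2 fold changes of 1.31 (SE 0.70) and 0.70 (SE 0.43), with adjusted p of 0.757 and 0.760. With TMM the 4 members other than miR-148a-5p were higher in 2 of 2 lines, as were 73 of 252 miRNAs (29%). miR-148a-5p was too, but its direction in HCT15 depended on the scaling. The fit had 1 residual degree of freedom, so a p over the threshold says little about the size of a difference.

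One scaling made a call. With TMM factors worked out on the 377 miRNAs alone, an alternative added after the data were seen, limma called 12 of 377, of which miR-148a-3p was 1 (log2 fold change 1.67, SE 0.46, adjusted p = 0.0147). Over the other 12 alternatives its adjusted p was 0.0860 to 1.00, the lowest with limma and no filter on low values.

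The miRNAs with the most alike pattern were, for both miR-148 genes, the opposite arm of the same hairpin. Likeness was the root mean square difference of log2 levels, each centred on its own mean over the 4 libraries, among 238 other miRNAs averaging 50 CPM or more. For miR-148a-3p the nearest was miR-148a-5p at 0.30, then miR-181c-3p at 0.54 and miR-21-3p at 0.57. For miR-148b-3p the nearest was miR-148b-5p at 0.23, then miR-21-5p at 0.32 and miR-30e-5p at 0.32. For miR-152 they were miR-141-3p at 0.36, let-7c at 0.47 and miR-30d-5p at 0.47. miR-148a-3p was far from the main arms of the other genes: miR-148b-3p was at 2.91 and miR-152 at 3.52 from it, at orders 102 and 139 of the 238. miR-148b-3p and miR-152 were nearer each other, at 0.67, which is order 32 from miR-148b-3p and order 20 from miR-152. All these distances rest on 4 libraries, and those of miR-148a-3p from miR-148b-3p and miR-152 mostly on the difference between the lines.

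Other miRNAs bear the same letters 1 base earlier. Of the 2370 mature entries, 5 (0.211%) start with CAGUGCA at bases 1 to 7, and 14 (0.591%) hold these letters anywhere. miR-130a-3p has no entry among them, so its sequence was not searched. The 3 of the 5 that had reads belong to the family of miR-130, miR-301 and miR-454, here with the letters in capitals.
miR-130b-3p: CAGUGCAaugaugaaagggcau
miR-301a-3p: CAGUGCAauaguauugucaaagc
miR-301b: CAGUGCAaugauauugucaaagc

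The other 2, miR-3666 and miR-4295, were at 0 in all 4 libraries. Their seeds, at bases 2 to 8, differ from that of miR-148 and miR-152. Of the 5 miRNAs listed for the miR-130 family, 4 were tested and 0 passed in limma. miR-454-3p, which is among these 4, does not hold the letters CAGUGCA in its mature sequence. In HT29 3 of these 4 were at least 2-fold lower in spheres, where 18.5% of 351 were: miR-301a-3p (1007 to 210 CPM, log2 ratio -1.68), miR-301b (328 to 68.4 CPM, -1.68) and miR-454-3p (274 to 62.2 CPM, -1.55), while miR-130b-3p was at -0.53. Their median was -1.62 in HT29 and -0.12 in HCT15, against 1.75 over 4 members and 0.55 over 5. All 4 ratios in HT29 stayed below 0 over the 7 scalings, while in HCT15 those of miR-301a-3p and miR-454-3p changed sign among them. miR-130a-3p, not tested and named after its values were seen, was at 1.03 CPM or less.

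Of 4 miRNAs of the HOX clusters on the same chromosome arms, 4 were tested and 0 passed in limma. In HT29 3 of 4 were at least 2-fold lower, where 18.5% of 351 were: miR-196a-5p (log2 ratio -1.37), miR-196b-5p (-1.31) and miR-615-3p (-1.91), whereas miR-10a-5p was at -0.062. Their median was -1.34 in HT29 and 0.048 in HCT15, where 0 of 4 were at least 2-fold lower and 5.86% of 324 were. Over the 7 scalings the 3 HT29 ratios past 2-fold stayed between -2.49 and -1.09, and the sign of miR-10a-5p changed. In HCT15 miR-10a-5p kept its ratio above 0, and the signs of the other 3 changed.

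Of 7 other miRNAs reported to target DNA methyltransferases, 5 were tested and 0 passed in limma. miR-29b-3p, which targets DNMT3A and DNMT3B, had log2 ratios of -1.04 in HT29 and 1.35 in HCT15. miR-29a-3p was at -0.21 and 0.48, and miR-29c-3p at -0.16 and 0.41. miR-185-5p was at 0.15 in HT29 and had about 7 reads in HCT15 spheres. miR-126-3p, named after its values were seen, was at 0.73 in HT29 and -0.15 in HCT15. The medians of the list were -0.16 over 5 miRNAs in HT29 and 0.44 over 4 in HCT15. Over the 7 scalings miR-29b-3p kept its sign in both lines, miR-126-3p kept its sign in HT29, and miR-29a-3p and miR-29c-3p kept theirs in HCT15. The signs of miR-29a-3p, miR-29c-3p and miR-185-5p in HT29 and of miR-126-3p in HCT15 changed with the scaling.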

How the data were processed

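Libraries were made from total RNA using Illumina's TruSeq small RNA chemistry, per the labels' protocols. For HT29 the authors deposited read counts, and for HCT15 they deposited RPKM, each under miRBase 19 names, per the file headers. hg19 is the build named in the submitters' processing notes. How reads were trimmed, aligned and shared between miRNAs is not given in the sources used here.

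HCT15 reads were worked out from the commonest low value at a mature length of 22 bases. It was taken as 1 read in parental cells (0.162) and as 2 reads of 0.263 in spheres, where odd multiples of 0.263 were frequent. The step was 1.36% smaller at 21 bases, as for miR-152, which was not corrected. Within 0.02 of the commonest value, 45.4% of 680 low values in parental cells were whole multiples of it, that is, whole reads. In spheres 26.8% of 369 low values were whole multiples of it, or even numbers of reads, and 20.6% were odd numbers of reads. The reads are therefore approximate. A count of 0 allows up to 3 reads, or 0.234 to 1.29 CPM, and the HCT15 sphere library lists few single reads.

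Ratios within a line used TMM factors over the 4 libraries and a prior count of 2, with no test. Intervals are exact conditional binomial for ratios, Wilson for shares and Wald between members, all at 95% and for counting error only. limma 3.58.1 with a mean-variance trend, edgeR 4.0.16 and DESeq2 1.42.0 in R 4.3.3 were fitted on all miRNAs past the filter, with Benjamini-Hochberg adjustment, and limma was tested on simulated data. limma was the main test since HCT15 is not in counts. Python 3.11.15 with scipy 1.17.1 did the rest. Sequences are from RefSeq (GRCh38.p14) and positions from GENCODE 29, with none moved from or to hg19.

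Named were the 5 members, all miRNAs sharing their seed, the 3 most alike to each main arm, up to 4 of each of 3 lists of other miRNAs by mean CPM, and marker miRNAs of cell types. The members and lists were chosen with earlier results of these data known.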

Additional observations from a re-analysis of the deposited data

How the results depend on the processing

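The number of members called across both lines was 0 in 12 of 13 alternatives and 1 with TMM over miRNAs at 10 CPM or more, an alternative added after the data were seen; the cause was not tested. limma called 7 miRNAs without a filter on low values, DESeq2 called 5 and limma-voom 3, with 0 members among them. All 5 members had a log2 fold change above 0 in each of the 13. The number of members at least 2-fold higher in HT29 was 3 to 5 over the scalings and prior counts, miR-148a-5p among them, and in HCT15 it was 0 throughout. Without miR-148a-5p the number in HT29 was 2 to 4 over the 7 scalings. Over the same scalings, 4.56% to 16.8% of all 351 miRNAs were at least 2-fold higher in HT29 spheres. In HCT15 spheres 5.86% to 12.3% of all 324 were. The ratio of miR-148a-5p in HCT15 was -0.16 with total counts and -0.048 with total counts without the 10 most abundant miRNAs, against 0.19. HCT15 reads by mature length, also added later, and the deposited values as they are changed no direction. Leaving out a line leaves no residual degree of freedom, so the values of each line alone stand in the report. The block for the line already pairs the 2 libraries of each line, and the labels carry no replicate numbers. Without that block 0 of all 377 miRNAs, and so no member, had an unadjusted p under 0.05. No member did with total counts either, where 39 of 377 did, or in limma without a trend, where 18 of 377 did. Depth limits miR-148a-5p in HT29 parental cells, at 28 reads.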
